A study of Mus musculus with 8 samples.

Results

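Peroxisomes are single-membrane organelles that oxidise lipids and break down the hydrogen peroxide made on the way. The results below concern the transcripts of 34 mouse genes of this organelle among the 17634 genes of the deposited table. The genes were taken by symbol from a list drawn up by function: 13 biogenesis factors, all named Pex, and 21 enzymes and transporters. All 34 were found. The table gives bulk RNA sequencing of small intestinal crypts, the pockets below the villi where stem cells and dividing progenitors lie, from C57BL/6N mice 3 days after irradiation. Crypts of 4 wild-type mice (WT) were set against crypts of 4 mice that lacked the miR-29ab1 locus, labelled miR-29ab1-/- and called the knockout here. Every library came from an irradiated animal, so each difference is one between genotypes after irradiation. By its title, the series asks how fatty acid oxidation bears on the fate of intestinal stem cells. The radiation dose, the age and sex of the mice, and whether the locus was lost in all cells or in some are details not stated in these sources.

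Peroxisomes shorten very long, branched and dicarboxylic fatty acids by beta-oxidation and phytanic acid by alpha-oxidation. The first oxidase step passes its electrons to oxygen, and catalase removes the peroxide. Their proteins are made in the cytosol: peroxins encoded by the Pex genes insert the membrane proteins, carry matrix enzymes in on the receptors Pex5 and Pex7, recycle those receptors and divide the organelle. In rodents many of the lipid enzymes are classical targets of the nuclear receptor PPAR alpha, which binds DNA with RXR. Absorptive enterocytes are rich in these enzymes.

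The locus removed in the knockout encodes miR-29a and miR-29b. Their mature strands, from RefSeq on GRCm38.p6, are shown because they fix which target letters could be searched for in the peroxisomal transcripts. miR-29a-3p lies at chr6:31062673-31062694 and the miR-29b-3p of this locus at chr6:31063025-31063047, both on the minus strand. The capitals mark the seed, bases 2 to 8, which the strands share.
miR-29a-3p: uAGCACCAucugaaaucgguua
miR-29b-3p: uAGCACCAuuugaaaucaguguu
An identical miR-29b-3p and the related miR-29c-3p, with the same seed, are also annotated on the plus strand of chromosome 1 (chr1:195037091-195037113 and chr1:195037600-195037621), outside the locus that the knockout lacks.
miR-29c-3p: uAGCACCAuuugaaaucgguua
The letters that pair with this seed, TGGTGCT, were searched for on the transcript strand, taking for each gene its longest 3′ UTR as annotated by GENCODE M21 (GRCm38). They occurred in 5 of the 34 peroxisomal genes (14.7%) and in 1965 of 12648 tested genes with an annotated 3′ UTR (15.5%), so the peroxisomal share was close to that of all genes. The median 3′ UTR was 859.5 bases in the peroxisomal genes and 1164 in the tested genes. Of the 5 genes, 4 were biogenesis factors, Pex5, Pex7, Pex11g and Pex26, and the fifth was the enzyme gene Ehhadh. Each match is shown with its flanks because these genes did not move together (values below); capitals mark the letters matched, and positions count from the first base of the 3′ UTR.
Pex5, bases 261 to 267: tcaggccctttctTGGTGCTgcttcttg
Pex7, bases 6375 to 6381: acatgcgaaaataTGGTGCTgttagggt
Pex11g, bases 33 to 39: gtggaggacactgTGGTGCTcaacagga
Pex26, bases 464 to 470: gactttccagatcTGGTGCTgagggatc
Pex26, bases 2201 to 2207: gggcatgcgcttcTGGTGCTgtgaaacc
Ehhadh, bases 128 to 134: ctgctggtggtggTGGTGCTaaatggtc
Ehhadh, bases 445 to 451: acatgatgcaccaTGGTGCTgtgttgca
The first match in Ehhadh was followed by an A, the base opposite position 1 of the miRNA, and the other 6 were not. Pex26, with 2 matches, was lower in the knockout, Pex5, Pex11g and Ehhadh were higher, and Pex7 did not pass the test. A match is a string of letters, with no binding measured, and the miR-29 genes themselves are not analysed here.

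Libraries held 10719668 to 16231099 counts in WT and 9481201 to 14612798 in the knockout, and 12908 genes had enough counts to be tested with edgeR. Mature enterocyte transcripts were far more abundant in the knockout: all 20 markers were called higher, and their summed level was 3015 to 14620 CPM (read counts scaled to library size) in WT and 34620 to 113900 in the knockout. All 11 proliferation genes and 6 of 10 stem cell genes were lower, and 6 of 7 goblet cell genes were higher. Summed levels overlapped between the genotypes for Paneth cell genes (7537 to 11030 CPM in WT, 8127 to 25110 in the knockout), fibroblast genes (38.8 to 255 and 41.2 to 330) and leukocyte genes (39.2 to 166 and 87.6 to 623). The stem cell sum overlapped as well, at 952 to 1285 CPM in WT and 604 to 1056 in the knockout. Hepatocyte and kidney tubule transcripts, from other peroxisome-rich cells, summed to 1.91 to 4.40 CPM in WT and 2.69 to 6.52 in the knockout. Fibroblast transcripts were most abundant in knockout replicates 3 and 4 and WT replicate 3. In bulk RNA, more cells of a type and more RNA per cell cannot be told apart. The enterocyte markers moved with the results below, and their part in them was not tested.

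Most enzymes of peroxisomal lipid oxidation were higher in the knockout. Of the 13 biogenesis factors, 5 were called in either direction, beside 6105 of all 12908 tested genes. With the replicate number as a block, 7 of 13 were called, 6 higher and 1 lower, beside 7226 of the 12908. These counts do not set the biogenesis factors apart from all genes. Of the 33 genes tested, 19 (57.6%) were called higher at an edgeR adjusted p under 0.05, against 24.2% of all tested genes. Only Pex26 and Nudt19, 2 genes (6.06%), were called lower, against 23.1% of all tested genes, and 12 were not called. The transporter gene Abcd2, with 1 to 8 counts per library, was too low to test. Among the 20 enzymes and transporters tested, 15 were higher (75%) and 1 was lower, with a median log2 fold change of 0.99. Among the 13 biogenesis factors, 4 were higher (30.8%) and 1 was lower, with a median log2 fold change of 0.20. Their share called higher was near the 24.2% of all tested genes. The median over all tested genes was 0.03. A change of at least 2-fold upward was seen in 10 enzyme genes, Acaa1b among them, and 3 biogenesis genes. How many of all tested genes changed as much was not counted, so these numbers have no background beside them. The thiolase gene Acaa1b had enough counts to be tested only through the knockout libraries; without it, 18 of 32 genes and 14 of 19 enzymes and transporters were higher, with an enzyme median of 0.98. These counts and medians are a description, and the contrast of the classes was not tested. The adjusted p (edgeR) of the called genes lay between 0.00108 and 0.0272, and that of the genes not called between 0.0758 and 0.921.

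**Figure D1:**
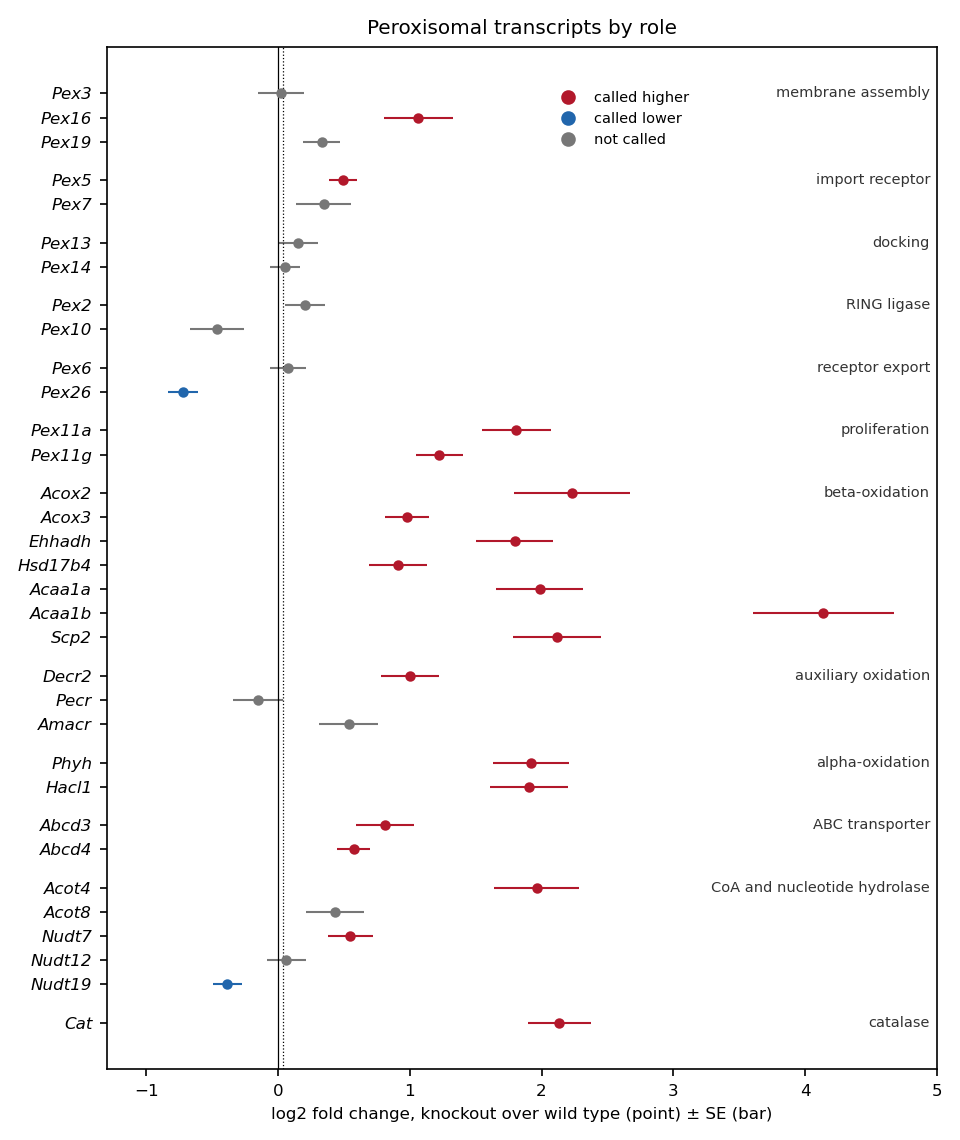
The log2 fold change of each of the 33 tested genes (knockout over WT, horizontal axis, with scaling by TMM factors) is drawn as a point with its standard error as a bar, grouped by role; the dotted line is the median of all tested genes, 0.03. All 7 genes of beta-oxidation lie to the right of 0, of which Acaa1b was tested only through the knockout libraries. By contrast, 8 of the 13 biogenesis factors were not called and lie between -0.47 and 0.35. With scaling by total counts alone, 7 of the 13 biogenesis factors are below 0.

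The groups did not overlap for 20 of the 33 genes. Every knockout library was above every WT library for 18 (54.5%), against 22.7% of all tested genes, and below for 2 (6.06%), against 22.7%. The 18 include Acaa1b, which was tested only through the knockout libraries. Without it, the knockout was above for 17 of 32 genes (53.1%). Together the 34 genes took 0.103 to 0.118% of all counts in the WT libraries and 0.166 to 0.234% in the knockout libraries. The size of the biogenesis shift depended on how libraries were scaled. With total counts alone, the median of all tested genes moved to a log2 fold change of -0.23, with 2089 genes called higher (16.2%) and 4011 lower in place of 3129 and 2976. The biogenesis median was then -0.08 and the enzyme median 0.71. Relative to the median of all genes, the biogenesis median was 0.17 with TMM factors and 0.15 with total counts, and the enzyme median 0.96 and 0.94.

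**Figure D2:**
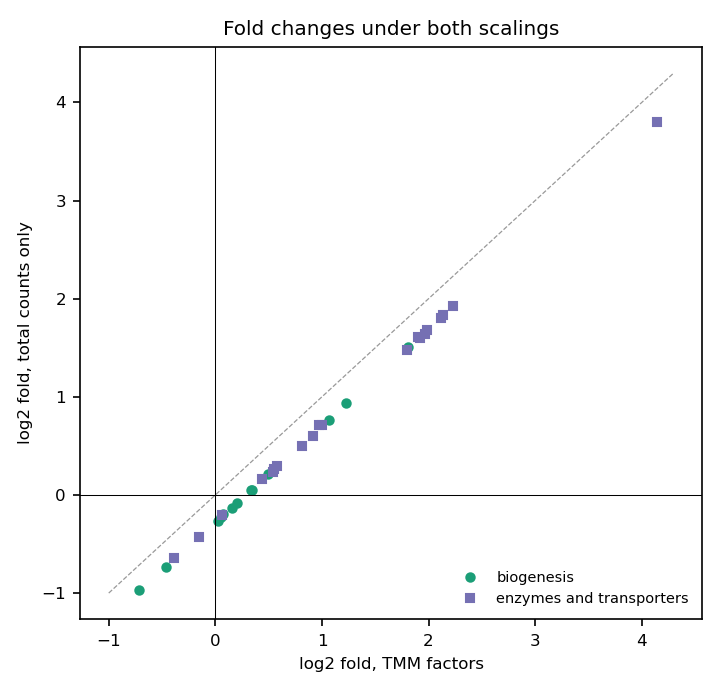
Log2 fold changes of the same genes are plotted with TMM factors (horizontal axis) against total counts alone (vertical axis); circles are biogenesis factors, squares are enzymes and transporters, and the dashed line marks equal values. All points lie below the line, and 7 biogenesis factors and 3 enzymes fall below 0 with total counts alone, against 2 and 2 with TMM factors.

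The biogenesis factors that insert membrane proteins differed among themselves. Pex16 (NCBI gene 18633), a membrane peroxin that recruits Pex3, was measured at 23.2, 28.3, 18.8 and 15.6 CPM in WT replicates 1 to 4 and at 60.9, 53.7, 30.9 and 33.8 CPM in knockout replicates 1 to 4. The groups did not overlap, although knockout replicates 3 and 4 were only a little above the highest WT library. Its log2 fold change was 1.07 (SE 0.26, edgeR adjusted p = 0.00941). Pex3, the membrane anchor, had a log2 fold change of 0.02 (SE 0.18), and Pex19, the cytosolic carrier of membrane proteins, one of 0.33 (SE 0.14, edgeR adjusted p = 0.0766). With the replicate number as a block, Pex19 was called, with a log2 fold change of 0.32 and an edgeR adjusted p of 0.0148, and so it was without knockout replicate 3 (edgeR adjusted p = 0.043). It was also called with a mean of at least 50 counts (edgeR adjusted p = 0.0465). The same held without the 3 libraries with most fibroblast transcripts (edgeR adjusted p = 0.0274).

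The import receptors showed small shifts. Pex5 (NCBI gene 19305) binds matrix enzymes that carry the C-terminal targeting signal. It was nearly constant in WT, at 31.3, 32.2, 32.0 and 31.0 CPM, and was measured at 50.9, 47.0, 39.3 and 40.8 CPM in the knockout. All 4 knockout libraries were above all WT libraries, and the log2 fold change was 0.49 (SE 0.11, edgeR adjusted p = 0.0054). With total counts alone it was 0.21 and Pex5 was not called (edgeR adjusted p = 0.121). Pex7, the receptor for the N-terminal signal, had a log2 fold change of 0.35 (SE 0.21, edgeR adjusted p = 0.201), and was called with the replicate block (0.31, edgeR adjusted p = 0.0497). Without the 3 libraries with most fibroblast transcripts Pex7 was called too (0.58, edgeR adjusted p = 0.0199).

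Of the 6 docking, ubiquitin ligase and export components, Pex26 alone passed the test, and it was lower. Pex14 (NCBI gene 56273), the docking factor where loaded receptors arrive, was measured at 47.6, 43.4, 40.8 and 42.7 CPM in WT and at 49.2, 50.4, 38.8 and 42.9 CPM in the knockout, and the groups overlapped throughout. Its log2 fold change was 0.05 (SE 0.11, edgeR adjusted p = 0.713). Its partner Pex13 had a log2 fold change of 0.15 (SE 0.15). Of the RING ligases that ubiquitinate the receptor, Pex2 had a log2 fold change of 0.20 (SE 0.15) and Pex10 of -0.47 (SE 0.21, edgeR adjusted p = 0.0899). Pex10 was called lower without knockout replicate 2 (-0.68, edgeR adjusted p = 0.0222) and with total counts alone (-0.74, edgeR adjusted p = 0.0238). Pex6, an ATPase that pulls the receptor out of the membrane, had a log2 fold change of 0.08 (SE 0.14).

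Pex26 (NCBI gene 74043), the membrane anchor of the Pex6 ATPase, was the biogenesis factor called lower. It was measured at 35.1, 34.4, 36.6 and 34.6 CPM in WT and at 20.2, 18.3, 24.9 and 22.1 CPM in the knockout. Every knockout library was below every WT library, and the WT libraries lay close together. The log2 fold change was -0.72 (SE 0.12, edgeR adjusted p = 0.00163), a level 1.65-fold lower in the knockout. It kept its call in all 17 alternatives. The ATPase itself, Pex6, was not called.

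The Pex11 genes, which encode membrane proteins that elongate and divide peroxisomes, had the largest upward changes among the biogenesis factors. Pex11a (NCBI gene 18631) was measured at 17.6, 21.5, 17.3 and 14.4 CPM in WT and at 82.3, 68.4, 32.7 and 64.5 CPM in the knockout. Knockout replicate 3 was the lowest of its group and still above every WT library. The log2 fold change was 1.81 (SE 0.26, edgeR adjusted p = 0.00126), or 3.51-fold. Pex11g (NCBI gene 69129), expressed at a lower level, was measured at 5.36, 5.02, 5.44 and 4.46 CPM in WT and at 14.4, 11.8, 11.4 and 9.73 CPM in the knockout. The groups were far apart, with a log2 fold change of 1.22 (SE 0.18, edgeR adjusted p = 0.00126). An annotated gene on the opposite strand covers 41.1% of the exon bases of Pex11g and another 28.3% of those of Pex14, and since the strandedness of the counting is not given, reads of such pairs cannot be told apart.

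**Figure D3:**
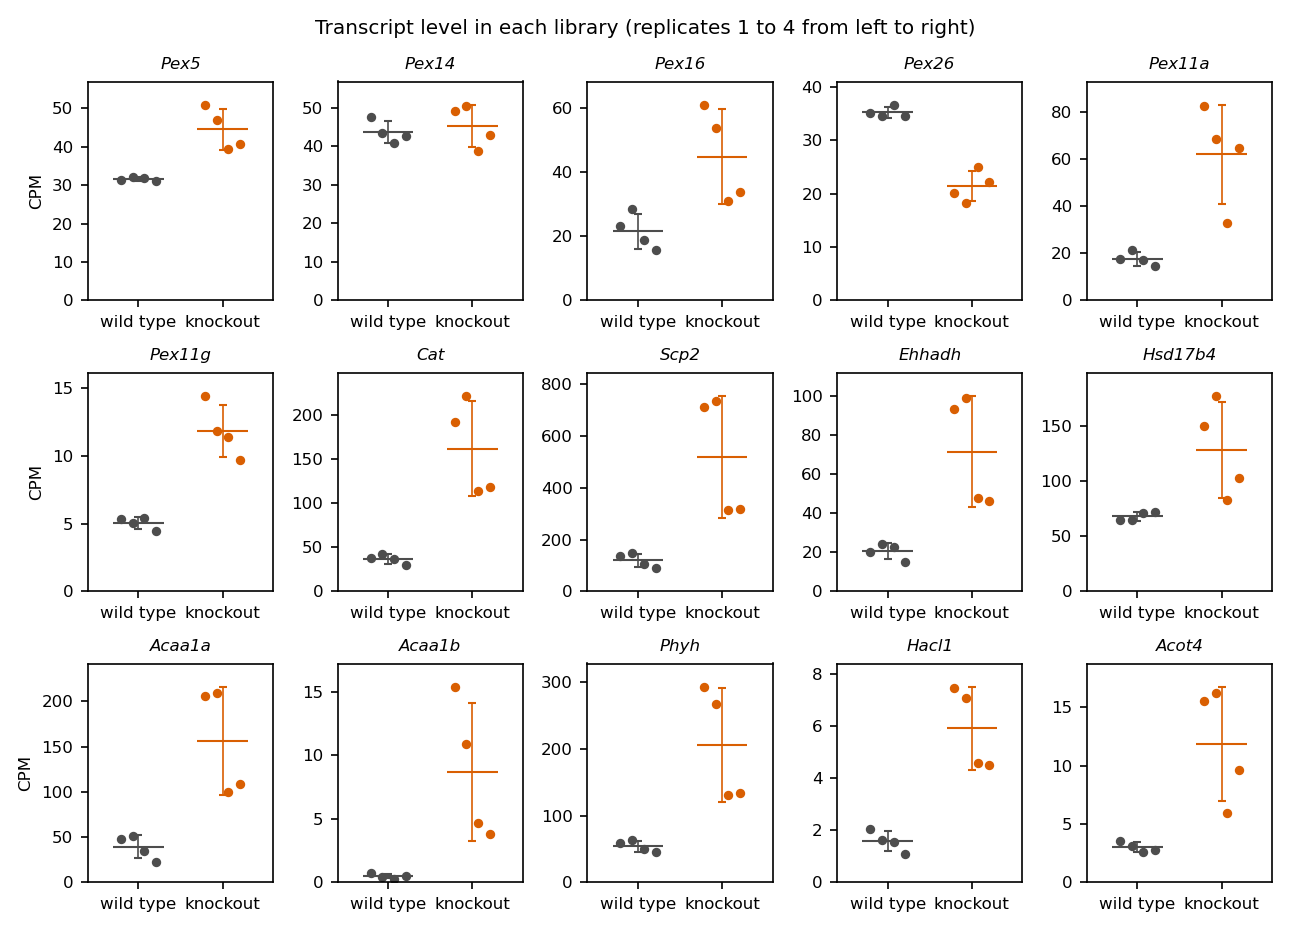
CPM levels (vertical axes, from 0) of 15 genes are shown in each library, with WT in grey and the knockout in orange; horizontal lines are group means and bars the SD (n = 4). In 14 of the 15 panels the groups do not overlap, Pex14 being the exception. All genes shown but Pex14 and Hsd17b4 were those with the smallest p of their class, so the choice itself favoured groups apart. Acaa1b was tested only through the knockout libraries. Over all 33 tested genes the knockout lay wholly above WT for 18 and below for 2, against 22.7% each way of all tested genes. Knockout replicates 1 and 2 lie above 3 and 4 in every panel except that of Pex26.

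The 6 genes of the beta-oxidation spiral besides Acaa1b were all called higher in the knockout, against 24.2% of all tested genes. Their log2 fold changes were 0.91 to 2.23. Acaa1b, tested only through the knockout libraries, is described below. The oxidases make the first step: Acox2, which acts on branched fatty acids and bile acid intermediates, rose by 2.23 on the log2 scale (SE 0.44, edgeR adjusted p = 0.00348), and Acox3 rose by 0.98 (SE 0.17, edgeR adjusted p = 0.00204). The bifunctional enzymes carry out the next steps. Ehhadh (NCBI gene 74147) was measured at 20.3, 24.3, 22.8 and 15.0 CPM in WT and at 93.3, 98.7, 47.8 and 45.9 CPM in the knockout. Knockout replicates 1 and 2 were about level with each other and well above 3 and 4, which in turn were above all WT libraries. The log2 fold change was 1.80 (SE 0.29, edgeR adjusted p = 0.00166). Hsd17b4 (NCBI gene 15488), the other bifunctional enzyme, was measured at 64.4, 64.7, 71.0 and 72.2 CPM in WT and at 150.2, 177, 82.8 and 102.4 CPM in the knockout. The groups did not overlap, but knockout replicate 3 came close to the WT range, and the log2 fold change was 0.91 (SE 0.22, edgeR adjusted p = 0.00885).

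The thiolases, which release acetyl-CoA or propionyl-CoA in the last step, were measured through 3 genes. Acaa1a (NCBI gene 113868) was measured at 48.1, 51.4, 35.2 and 23.1 CPM in WT and at 206, 209.8, 100.2 and 108.3 CPM in the knockout. All knockout libraries were above all WT libraries, and the log2 fold change was 1.99 (SE 0.33, edgeR adjusted p = 0.00185). Its near copy Acaa1b (NCBI gene 235674) was measured at 0.705, 0.448, 0.299 and 0.495 CPM in WT and at 15.4, 10.9, 4.69 and 3.84 CPM in the knockout. It was barely present in WT, with 5.21 to 10.45 estimated counts per library. All 4 knockout libraries but only 1 WT library reached the 0.735 CPM that the filter on low counts asks for, so a gene kept in this way had to differ, and its fitted log2 fold change of 4.14 (SE 0.54) is given as a description. The coding sequences of Acaa1a and Acaa1b are identical at 1228 of 1272 bases (96.5%), and the deposited counts of Acaa1b were not whole, so how reads were split between them is uncertain. Scp2 (NCBI gene 20280) encodes a thiolase for branched substrates and, from a second start, sterol carrier protein. It was measured at 135.7, 147.5, 105.5 and 89.6 CPM in WT and at 710.6, 735.4, 313.5 and 319.9 CPM in the knockout. The knockout libraries formed a high and a lower pair, both above WT, with a log2 fold change of 2.12 (SE 0.33, edgeR adjusted p = 0.00155).

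Alpha-oxidation, which removes 1 carbon from phytanic acid so that beta-oxidation can follow, was represented by 2 genes, both higher. Phyh (NCBI gene 16922), the phytanoyl-CoA hydroxylase, was measured at 58.8, 63.1, 50.1 and 45.1 CPM in WT and at 292.3, 266.1, 130.3 and 133.2 CPM in the knockout. The groups did not overlap, and the log2 fold change was 1.92 (SE 0.29, edgeR adjusted p = 0.0014). Hacl1 (NCBI gene 56794), the lyase of the following step, was measured at 2.04, 1.61, 1.55 and 1.1 CPM in WT and at 7.47, 7.07, 4.59 and 4.49 CPM in the knockout. Its log2 fold change of 1.90 (SE 0.30, edgeR adjusted p = 0.00148) was close to that of Phyh, although its level was far lower. An annotated gene on the same strand shares 31.1% of the exon bases of Hacl1.

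The auxiliary enzymes, which prepare unsaturated or branched substrates, moved less evenly. Decr2, the dienoyl-CoA reductase, rose by 1.00 on the log2 scale (SE 0.22, edgeR adjusted p = 0.00541). Pecr, an enoyl-CoA reductase, had a log2 fold change of -0.15 (SE 0.19, edgeR adjusted p = 0.531). Amacr, the racemase for branched substrates, had one of 0.54 (SE 0.22, edgeR adjusted p = 0.0758). It was called with the replicate block (0.49, edgeR adjusted p = 0.0449) and without knockout replicate 3 (0.68, edgeR adjusted p = 0.0212). Without the 3 libraries with most fibroblast transcripts Amacr was called too (0.84, edgeR adjusted p = 0.0164).

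Among the ABC transporters, Abcd3, which brings branched and dicarboxylic acyl groups into the peroxisome, rose by 0.81 on the log2 scale (SE 0.22, edgeR adjusted p = 0.0145). Abcd3 lost its call without knockout replicate 1 (0.64, edgeR adjusted p = 0.0674) or 2 (0.61, edgeR adjusted p = 0.0583). Abcd4, which despite its family works in lysosomal cobalamin export, rose by 0.58 (SE 0.13, edgeR adjusted p = 0.00544); with total counts alone it was not called (0.29, edgeR adjusted p = 0.145).

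The hydrolases that free fatty acids from CoA or cut nucleotides split in direction. Acot4 (NCBI gene 171282), a thioesterase of dicarboxylic acyl-CoA, was measured at 3.59, 3.14, 2.63 and 2.81 CPM in WT and at 15.5, 16.3, 5.98 and 9.64 CPM in the knockout. The groups did not overlap, and the log2 fold change was 1.96 (SE 0.32, edgeR adjusted p = 0.0018). The broad thioesterase Acot8 had a log2 fold change of 0.43 (SE 0.22, edgeR adjusted p = 0.13) and was called with the replicate block (0.44, edgeR adjusted p = 0.0157). The CoA diphosphatases went opposite ways: Nudt7 rose by 0.55 (SE 0.17, edgeR adjusted p = 0.0272), with groups that overlapped, and Nudt19 fell by 0.39 on the log2 scale (SE 0.11, edgeR adjusted p = 0.0187). Neither call held under every alternative. Nudt7 lost its call with total counts alone (edgeR adjusted p = 0.19), with no filter on low counts (0.0524), without replicate 4 of both groups (0.0512) and without WT replicate 1, 3 or 4 or knockout replicate 1 or 2 (0.0683 to 0.106). Nudt19 lost its call without WT replicate 4 (edgeR adjusted p = 0.0526), without replicate 4 of both groups (0.0638) and without the 3 libraries with most fibroblast transcripts (0.0769). An antisense gene covers 35% of the exon bases of Nudt19. Nudt12, which hydrolyses NADH, had a log2 fold change of 0.06 (SE 0.15).

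Catalase, the enzyme that removes the hydrogen peroxide made by the oxidases, had the smallest p of the 33 genes. Cat (NCBI gene 12359) was measured at 38.2, 42.4, 36.8 and 29.5 CPM in WT and at 192, 221.1, 113.9 and 117.6 CPM in the knockout. The lowest knockout library was well above the highest WT library, and the log2 fold change was 2.14 (SE 0.24, edgeR adjusted p = 0.00108), or 4.39-fold.

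Per unit of transcript length, as deposited FPKM, the most abundant of the 33 genes in WT were Scp2 at 51.3 ± 9.3 (SD, n = 4), Nudt19 at 47.4 ± 2.52, Phyh at 44.0 ± 5.12 and Abcd3 at 40.0 ± 3.77. In the knockout the order was Scp2 at 179 ± 60.7, Phyh at 133 ± 40.3, Acaa1a at 84.0 ± 22.5, Cat at 58.8 ± 13 and Abcd3 at 56.4 ± 11.8. In WT each of these 4 genes differed from its neighbour in the order by less than the larger SD of the pair. In the knockout the same held for Scp2 against Phyh and for Cat against Abcd3, whereas Phyh and Acaa1a, and Acaa1a and Cat, differed by more. The median level of the biogenesis factors was 11.6 FPKM in WT and 13.1 in the knockout, and that of the enzymes 9.13 and 16.4. FPKM values carry no TMM factor and are used here only to order genes within a genotype.

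Within each genotype the genes also followed the library. To put the classes on 1 scale, the log2 CPM of each gene was centred on its mean over the 8 libraries and averaged over the class. The biogenesis mean was -0.10, -0.04, -0.23 and -0.30 in WT replicates 1 to 4 and 0.34, 0.35, -0.08 and 0.06 in the knockout. The enzyme mean was -0.49, -0.43, -0.67 and -0.82 in WT and 0.94, 0.94, 0.22 and 0.30 in the knockout. The enzyme mean minus the biogenesis mean was -0.43 ± 0.06 in WT and 0.43 ± 0.19 in the knockout (SD, n = 4), with no overlap between the genotypes. Centring makes these group means equal in size and opposite in sign, so they count as a single result. The enzyme mean includes Acaa1b, which was tested only through the knockout libraries, and no mean without it is given. Knockout replicates 1 and 2 were both above 3 and 4 in 26 of the 33 genes (78.8%), against 27.2% of all tested genes, and in 17 of the 19 genes called higher, against 56.4% of all genes called higher. WT replicates 1 and 2 were both above 3 and 4 in 19 of the 33 genes (57.6%), against 32.9% of all tested genes. Among the 19 genes called higher this held for 11 (57.9%), near the 53.2% of all genes called higher. The enterocyte sum had a like order, with 113900, 95920, 34620 and 54810 CPM in knockout replicates 1 to 4 and 14540, 14620, 5464 and 3015 in WT, and its part was not tested.

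**Figure D4:**
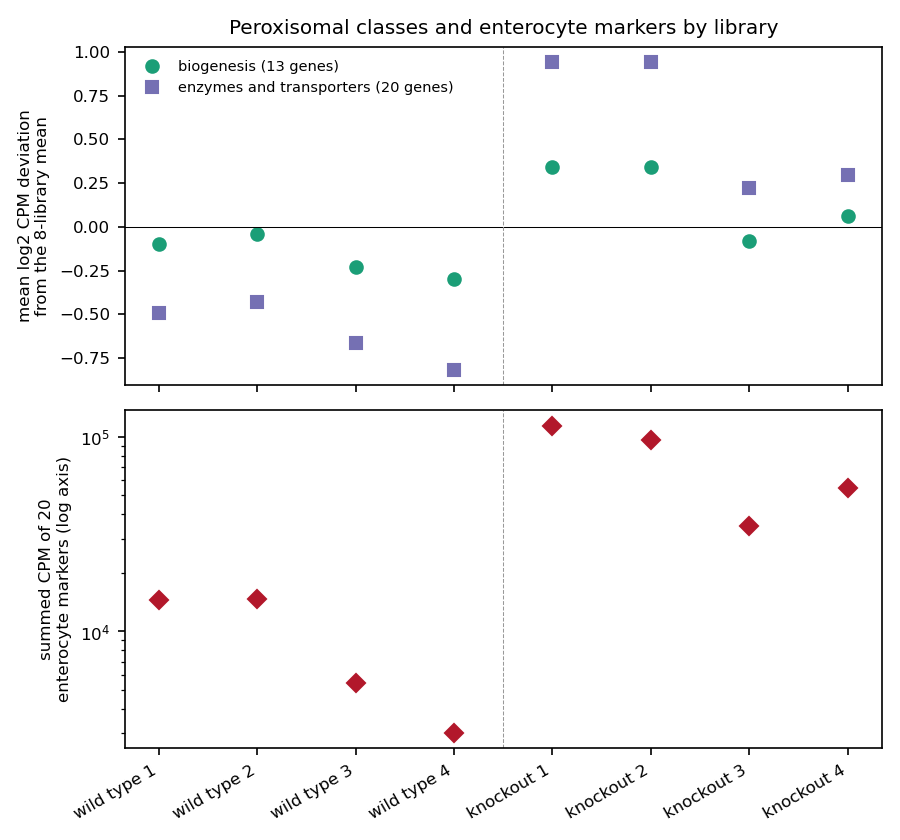
The upper panel shows, for each library, the mean deviation of log2 CPM from the 8-library mean over 13 biogenesis factors (circles) and 20 enzymes and transporters (squares); the lower panel shows the summed CPM of 20 enterocyte markers on a log axis. The enzyme mean is below -0.4 in all 4 WT libraries and above 0.2 in all 4 knockout libraries, while the biogenesis mean of knockout replicate 3, -0.08, lies within the WT range of -0.30 to -0.04, and the enterocyte sum is highest in knockout replicates 1 and 2. The enzyme mean includes Acaa1b, which was tested only through the knockout libraries.

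The remaining genes of the organelle were described from 43 further genes in 5 lists, of which 37 were tested. Of these, 18 were higher (48.6%) and 6 were lower (16.2%), against 24.2% and 23.1% of all tested genes. The median log2 fold change was 0.69. Of 15 further lipid oxidation genes tested, 10 were higher (66.7%) and 5 were not called, with a median of 1.43. Crat, the carnitine acetyltransferase, rose by 1.98 on the log2 scale (SE 0.24, edgeR adjusted p = 0.00108), and Acad11, an acyl-CoA dehydrogenase, by 1.47 (SE 0.17, edgeR adjusted p = 0.00108). Of 10 further biogenesis and membrane genes, 3 were higher (30%) and 1 was lower (10%), with a median of -0.01. The higher share was near that of all tested genes. Acbd5, the membrane tether to the endoplasmic reticulum, rose by 0.91 (SE 0.12, edgeR adjusted p = 0.00116), Pxmp4 by 1.27 and the fission factor Fis1 by 0.73, while the carrier Slc25a17 fell by 0.41 on the log2 scale. Of 4 redox enzymes 3 were higher: the epoxide hydrolase Ephx2 by 3.96, the glutathione transferase Gstk1 by 3.15 and the peroxiredoxin Prdx5 by 1.59. Of 4 genes of amino acid and polyamine oxidation tested, Dao (2.81) and Pipox (2.80) were higher and Paox (-0.53) was lower. Genes of these lists beyond Crat, Acad11 and Acbd5 were named after their values were seen.

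The ether lipid branch, the synthetic pathway of the peroxisome that makes plasmalogen precursors, went the other way. All 4 of its genes were called lower, against 23.1% of all tested genes. They too were named with their values known. Agps, the alkyl synthase, fell by 0.59 on the log2 scale (SE 0.12, edgeR adjusted p = 0.00386), and Gnpat, the acyltransferase of the first step, fell by 0.52 (SE 0.11, edgeR adjusted p = 0.0052). The reductases that supply fatty alcohols fell likewise, Far1 by 0.74 (SE 0.25, edgeR adjusted p = 0.0348) and Far2 by 0.62 (SE 0.15, edgeR adjusted p = 0.0083). In each of the 4 genes every knockout library was below every WT library, as was so for 22.7% of all tested genes. Far1 lost its call without WT replicate 1, 2, 3 or 4 or without knockout replicate 1 (edgeR adjusted p = 0.0556 to 0.0914), and Far2 lost it when the 3 libraries with most fibroblast transcripts were left out (edgeR adjusted p = 0.0607).

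**Figure D5:**
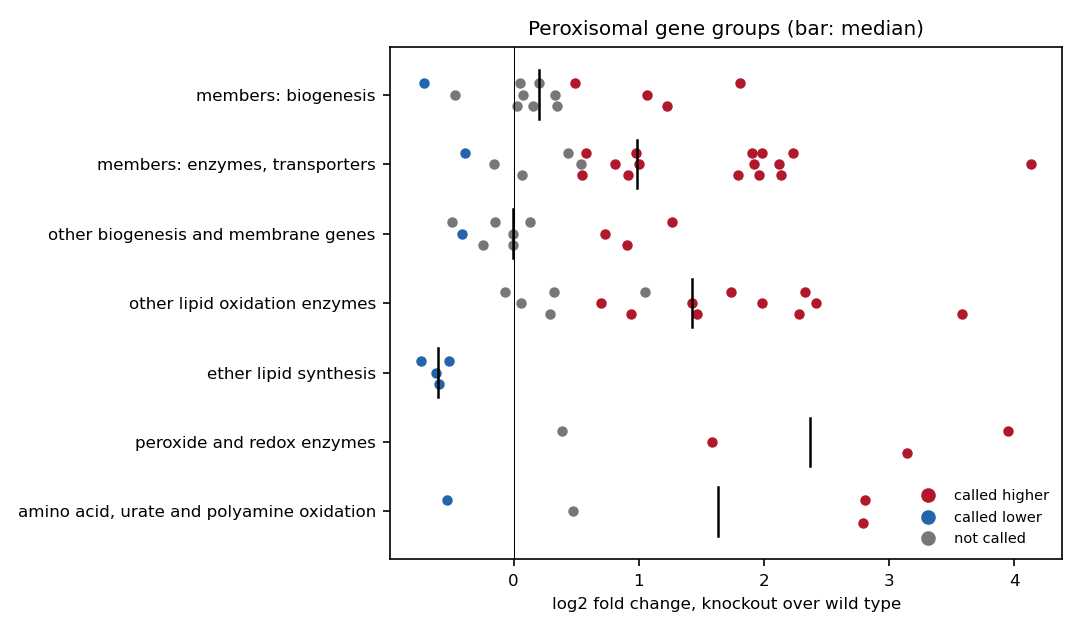
Each point is the log2 fold change of a tested gene (knockout over WT, horizontal axis), and the vertical bar is the median of its group; the upper 2 groups are the 33 genes described here and the lower 5 are further peroxisomal genes. Lipid oxidation genes lie mostly to the right, biogenesis genes around 0 and the 4 ether lipid genes to the left; with total counts alone the biogenesis median is -0.08.

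The receptor side of the pathway was examined through PPAR alpha and its partners. Of 6 receptor and coactivator genes 3 were higher. Ppara rose by 3.55 on the log2 scale (SE 0.54, edgeR adjusted p = 0.00145). Ppargc1a, a coactivator, rose by 2.02 (SE 0.24, edgeR adjusted p = 0.00108), and Rxra, the dimer partner, by 1.35 (SE 0.15, edgeR adjusted p = 0.00108). The other 3 were not called: Ppard (0.19), Pparg (0.02) and the coactivator Ppargc1b (-0.58, edgeR adjusted p = 0.0921). Ppara was at 4.14 ± 1.13 CPM in WT and 48.4 ± 28.4 in the knockout (SD, n = 4). The knockout libraries were uneven, at 75.8, 63.7, 10.8 and 43.4 CPM in replicates 1 to 4. By a list drawn up with the results known, 10 of the 34 genes are commonly described as PPAR alpha targets in rodents (Ehhadh, Acaa1a, Acaa1b, Hsd17b4, Abcd2, Abcd3, Pex11a, Decr2, Acot4 and Acot8). Of the 9 tested, 8 were higher (88.9%), with a median log2 fold change of 1.80. Acaa1b, tested only through the knockout libraries, is among the 8. Of the other 24 genes 11 were higher (45.8%), with a median of 0.42. Over all tested genes 24.2% were called higher. Because the list was drawn up with the results known, no conclusion is drawn from this split. Cat, Scp2, Phyh and Hacl1 are among these 24.

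PPAR and RXR bind a direct repeat of the half-site AGGTCA with 1 base between the copies. This repeat was searched for on both strands, with up to 2 mismatches over its 12 bases, from 250 bases before to 50 bases after each annotated start (RefSeq promoters, GRCm38.p6), which were found for 27 of the 34 genes. It occurred in 3 of these 27 (11.1%), in 394 of 10167 tested genes (3.88%) and in 1190 of all 27025 genes with a promoter (4.4%). The 3 were the enzyme genes Cat, Acot4 and Acox2, each with 2 mismatches, and none of the 11 biogenesis genes with a promoter held it. The sequences of the 3 are shown, with the match in capitals. They were called higher by 1.96 to 2.23 on the log2 scale. Genes with a promoter and no match included Scp2 (2.12) and Phyh (1.92), called higher, and Pex14 (0.05) and Pecr (-0.15), not called. Whether the repeat bears on the change was not tested. For Cat and Acot4 the 250 bases before the start are printed on the strand of the gene, for Acox2 the match at bases 10 to 22 after 1 of its 2 starts with 8 bases on each side.
Cat, chr2:103485154-103485403, minus strand: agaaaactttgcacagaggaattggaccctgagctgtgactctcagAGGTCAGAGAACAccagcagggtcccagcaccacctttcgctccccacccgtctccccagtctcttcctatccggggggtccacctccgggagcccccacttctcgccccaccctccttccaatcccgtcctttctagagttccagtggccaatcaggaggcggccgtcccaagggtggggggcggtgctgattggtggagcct
Acot4, chr12:84038129-84038378, plus strand: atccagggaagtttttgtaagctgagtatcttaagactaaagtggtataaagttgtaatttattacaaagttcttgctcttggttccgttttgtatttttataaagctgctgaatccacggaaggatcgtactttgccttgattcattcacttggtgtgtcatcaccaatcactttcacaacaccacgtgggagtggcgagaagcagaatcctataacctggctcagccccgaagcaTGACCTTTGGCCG
Acox2, minus strand of chromosome 14: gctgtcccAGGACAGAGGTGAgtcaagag
In Cat the repeat lies at bases -204 to -192 from the start and begins with an exact half-site. In Acot4 it lies at -13 to -1 on the opposite strand, where it reads CGGCCAAAGGTCA. A match is a description of these letters, and no binding was measured. Ehhadh, Pex11a and Acaa1a, which are often used to illustrate control by PPAR alpha, held no match in this window, which says nothing of bases outside it.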

How the data were processed

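RNA was isolated with TRIzol from small intestinal crypts, per the labels' protocols, and genotype and replicate number were read from the sample labels. The submitters' processing notes list HISAT2 and DESeq2 but give neither versions nor roles; for the counting program, genome build, annotation and strandedness the entry is "not given in the sources used here". For every gene the deposited table held a read count in each library, as its file headers state. In each library 8.04 to 9.18 percent of values were not whole, so the deposited values were treated as estimated counts and rounded to whole numbers. The second deposited columns, whose header names no unit, were taken as FPKM and used only to order genes by level.

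Genotypes were compared by the quasi-likelihood test of edgeR 4.0.16 (R 4.3.3) after filterByExpr and TMM scaling, with genotype alone in the model, Benjamini-Hochberg adjustment over all 12908 tested genes and a threshold of 0.05. Levels are CPM with TMM factors, and log2 CPM for class means used a prior count of 2. Standard errors (SE) of log2 fold changes were derived from the F statistic, as the absolute change over its root. The peroxisomal genes, their classes and all gene lists were chosen with earlier results of these data known. Every peroxisomal gene is named; values in every library are given for the 5 biogenesis and 8 enzyme genes with the smallest p and for Cat, Pex5, Pex14 and Hsd17b4. Of the other lists, at most 6 called genes with the smallest p are named; Ppara and further genes of these lists were added after their values were seen. Alternatives were DESeq2 1.42.0, other scalings and count filters, a replicate block and leaving out libraries.

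Deviations from the group means correlated at 0.31 to 0.52 between libraries with the same replicate number and at -0.48 to 0.45 between others, so same-numbered samples deviated together, though what a shared number stands for is not stated. The reported fit has no replicate term, and the fit with a replicate block was an alternative, given beside a result where it changed the call. Replicate 4 of either genotype had next to no Y-linked counts (3 in WT, 1 in the knockout), and all remaining libraries had 1285 to 2061. No library repeated another: the closest pair of a group differed by 5.89 times the sampling variance. Breeding and handling of the animals are not described, and the p-values therefore cover only the spread between these samples. Planned comparisons of protein targeting signals were not made. Some genes that the naming rule takes are not reported here.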

Additional observations from a re-analysis of the deposited data

Results flagged for a closer look

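Of 94 groups of 4 libraries examined (47 peroxisomal and related genes in each genotype), 1 held a library that stood far from the others. The fatty alcohol reductase gene Far1 was at 27.75 CPM in WT replicate 4 and at 20.72 to 21.08 CPM in the other WT libraries, so that 0.949 of the range of the group lay in this single gap. Chance alone marks about 1 in 20 such groups. WT replicate 4 also carried almost no Y-linked counts; the part of this in the Far1 value was not tested.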

How the results depend on the processing

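Of the 21 called genes, 15 kept call and direction in all 17 alternatives run, 16 of them planned and 1 chosen after seeing the data (leaving out the 3 libraries with most fibroblast transcripts). Hacl1 kept them in the 16 that tested it, having too few counts for a mean of at least 50. The exceptions were Pex5, Abcd3, Abcd4, Nudt7 and Nudt19; the cause was not tested. DESeq2 gave all 33 genes the same direction and call. With total counts alone, 2 biogenesis genes were lower and the biogenesis median log2 fold change was -0.079. Without replicate 4 of both groups, 18 genes were higher, 1 was lower and 0 enzymes were lower. Of all 12884 genes tested there, 2312 were higher and 2380 lower. Without the 3 libraries with most fibroblast transcripts, 22 genes were higher, 1 was lower, 0 enzymes were lower and the enzyme median was 1.30. Of all 12927 genes tested there, 3119 were higher and 3018 lower. The libraries left out were knockout replicates 3 and 4 and WT replicate 3. Both knockout replicates left out had lower enzyme means (0.22 and 0.30) than knockout replicates 1 and 2 (0.94 each). Leaving out 1 library at a time, the genes called lower numbered 1 (without WT replicate 4) to 3 (without knockout replicate 2), lower biogenesis genes 1 to 2 and lower enzymes 0 to 1. Over all tested genes, 2380 were lower without WT replicate 4 and 3228 without knockout replicate 2. The paired fit, with the replicate block, called 23 genes higher and 2 lower, adding Pex19, Pex7, Amacr and Acot8, and changed no other call among the 33. Calls rose over all 12908 tested genes too, to 3672 higher and 3554 lower from 3129 and 2976. At 4 libraries a group, a gene that missed the threshold is not shown to be unchanged, and Abcd2 was below the depth that allows a test.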
